A study of Oryza sativa with 9 samples.

Results

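The genes described here belong to 2 families of calcium-regulated protein kinases of rice: the calcium-dependent protein kinases (CPK, also called CDPK) and the CBL-interacting protein kinases (CIPK). Members were chosen by locus number from a fixed list of 29 CPK loci, OsCPK1 to OsCPK29, and 21 CIPK loci. The CIPK names skip some numbers between OsCIPK1 and OsCIPK29. Sums, shares and ranks of the CIPK family hence refer to the listed genes and not to a whole family. The rule for membership uses no expression value, although the families were picked with earlier results of these data known. Of these 50 genes, 48 were among the 34119 genes of the expression table, and 36 of them passed the filter on low values, beside 18569 genes in all. OsCPK2 (LOC_Os01g59360) and OsCPK14 (LOC_Os05g41270) were not analysed here.

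Polyadenylated RNA was sequenced from 14-day-old rice plants that had spent their last 3 h in 20% PEG8000, a polyethylene glycol that draws water out of roots. One group, NIP_PEG, was the wild type and the other, 708OE_PEG, was a single overexpression line, SDG708-YFP-1, in which SDG708, a histone methyltransferase of the SET-domain class, is joined to a yellow fluorescent protein. The level of SDG708 was not analysed here, and the promoter of the transgene was not given in the sources used. Each genotype had 3 replicate libraries, with both lanes of a wild-type replicate taken as 1 library, and both groups were treated with PEG, so that the comparison is between genotypes under dehydration and not between treated and untreated plants.

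Calcium rises in the plant cell within moments of water deficit, salt, cold or pathogen attack, and both families turn that rise into protein phosphorylation. A CPK carries its kinase domain and its calcium-binding EF hands in 1 polypeptide, so it senses calcium directly. A CIPK has no calcium-binding domain of its own and is switched on by a calcineurin B-like protein (CBL) that binds its regulatory NAF motif, and the best known CBL and CIPK pairs control sodium export and potassium uptake at the plasma membrane.

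Levels are FPKM, the fragments assigned to a gene scaled to its length in kilobases and to the size of the library. In the wild type the CPK family was led by OsCPK13 (LOC_Os04g49510), whose rice overexpressors tolerate cold, salt and drought better, and by OsCPK28 (LOC_Os12g07230). These genes held 24.6% ± 0.185 and 17.8% ± 1.35 (SD, n = 3 libraries) of the summed FPKM of the 27 CPK genes. The listed CIPK genes were led by OsCIPK29 (LOC_Os07g48090) with 18.6% ± 0.514 of their sum, OsCIPK16 (LOC_Os09g25090) with 13.9% ± 1.45 and OsCIPK9 (LOC_Os03g03510) with 13.5% ± 1.99. The spread between libraries left part of this order undecided: 7 of 18 neighbouring pairs of tested CPK genes and 8 of 16 pairs of tested CIPK genes overlapped in the wild type. Among the overlapping pairs were OsCPK19 and OsCPK8, and OsCIPK16 and OsCIPK9.

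The length behind these levels was close to the whole gene span with introns. It could be compared with the RefSeq span for 39 members, and 34 of them were within 1.1-fold. An intron-rich gene therefore has a lower FPKM than its transcript length alone would give, and the rice CIPK family is known to have an intron-rich and an intron-poor branch. OsCPK13 departed from the rule, with 2635 bases in the table against 4515 in RefSeq. So did OsCIPK29 (2143 against 1722), OsCIPK11 (1.38-fold), OsCPK21 (1.20-fold) and OsCIPK22, described below. The place of OsCPK13 above OsCPK28 depends on its length, since OsCPK28 had more reads in the wild type (a mean of 4665 against 3379). The order of the leading CIPK genes depends on length as well. OsCIPK9, with 4676 bases, had a mean of 6299 wild-type reads. OsCIPK29, with 2143 bases, had 4043, and OsCIPK16, with 1748 bases, had 2498.

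The summed FPKM of the CPK genes, of which OsCPK13, OsCPK28 and OsCPK19 made up 50.8% in the wild type, was 268, 236 and 254 in the wild-type libraries and 204, 206 and 203 in the overexpression libraries, and the groups did not overlap. The CIPK sums were 482, 489 and 493 in the wild type and 466, 463 and 444 in the overexpression line, a smaller gap that also left no overlap. With libraries rescaled to the reads in the table, as described below, the CPK sums were 250.1, 225 and 237 against 205, 206 and 208, still apart, and the CIPK sums were 449, 466 and 460.5 against 468, 464 and 456, which overlapped. These sums were not tested. In bulk seedling RNA, fewer cells of a type and less RNA per cell cannot be told apart.

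Gene by gene, 9 of 19 tested CPK genes were lower in the overexpression line and none was higher, and 5 of 17 tested CIPK genes were lower and 2 higher (limma on log2(FPKM + 1), Benjamini-Hochberg adjusted p below 0.05 over all 18569 genes). The background was high: 34.3% of all tested genes were called in either direction, 20.0% lower and 14.3% higher. The lower calls made up 47.4% of the tested CPK genes and 29.4% of the tested CIPK genes, and the higher calls 11.8% of the tested CIPK genes. The 3 libraries of each genotype did not overlap for 12 of 19 CPK genes and 12 of 17 CIPK genes, beside 50.6% of all tested genes. The median log2 fold change, overexpression line over wild type, was -0.13 for the CPK genes and -0.12 for the CIPK genes, against -0.04 for all genes tested. No label states that the replicates were separate cultures. The p-values hence refer to the variation among these libraries, part or all of which may be technical, and since lanes are labelled for the wild type alone, lane and genotype cannot be told apart.

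These counts depend on the scaling of the libraries. Relative to the library sizes that the FPKM values imply, the recovered reads summed to 1.07, 1.05 and 1.07 in the wild-type libraries and to 0.995, 0.997 and 0.972 in the overexpression libraries. With libraries rescaled to the reads in the table, 1 CPK gene was higher and 2 lower, and 3 CIPK genes were higher and 2 lower. The lower ones were OsCPK13, OsCPK28, OsCIPK9 and OsCIPK24, so every other member called lower lost its call there. The same rescaling changed the split over all genes from 2654 higher and 3706 lower to 3682 higher (19.8%) and 2079 lower (11.2%). It moved the median log2 fold change of all genes from -0.04 to 0.04, that of the CPK genes from -0.13 to -0.06 and that of the CIPK genes from -0.12 to -0.02. The 5 members that kept their call under all 17 alternatives tried were OsCPK13, OsCPK28, OsCIPK9 and OsCIPK24 (lower) and OsCIPK1 (higher).

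**Figure D1:**
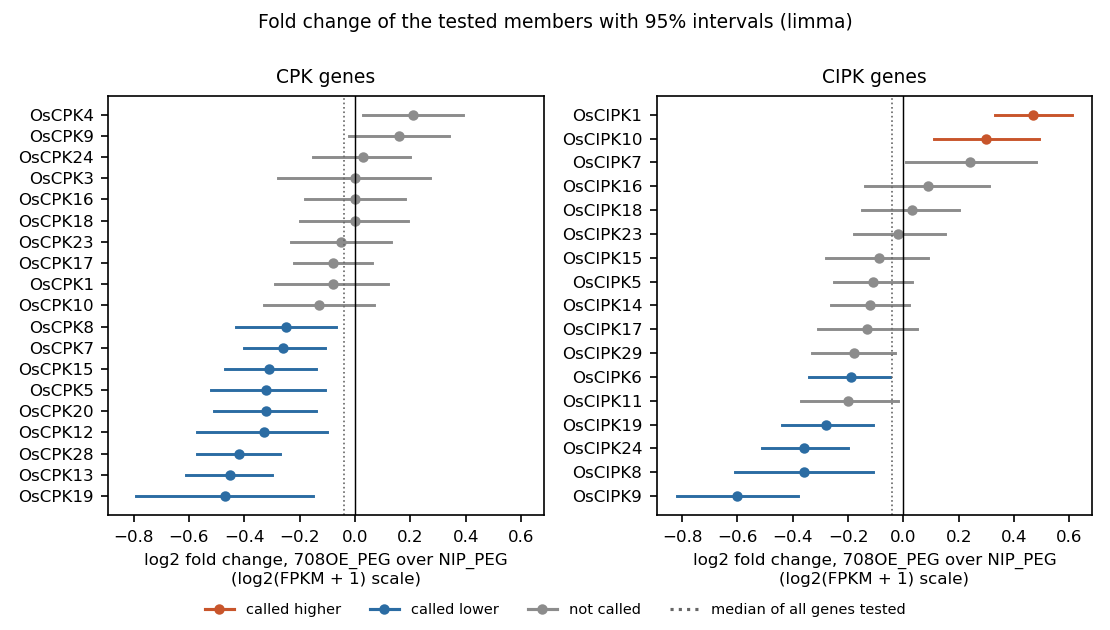
Log2 fold change, overexpression line over wild type, of the 19 tested CPK genes (left) and the 17 tested CIPK genes (right) on the log2(FPKM + 1) scale. Points are limma estimates from 3 libraries per genotype, bars are 95% confidence intervals, colour marks the call at an adjusted p below 0.05 and the dotted line is the median of all genes tested (-0.04); blue points (called lower) appear in both panels and orange points (called higher) in the CIPK panel alone, for OsCIPK1 and OsCIPK10.

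The 6 CPK genes with the highest wild-type FPKM were all called lower, as were 3 of the other 13. That order uses wild-type values that also enter the comparison, so it describes the calls and is not support for them. OsCPK7 and OsCPK1, at ranks 6 and 7, overlapped in the wild type. By level in the overexpression line, OsCPK24, which was not called, had rank 6 and OsCPK7 had rank 8. Lower calls were also more frequent among abundant genes in general. In the fit limited to genes with a mean FPKM of at least 5, 3137 of all 10042 genes were lower, and 7 of 12 CPK genes. OsCPK13 stood at 66.6, 58.1 and 62.2 FPKM in the wild type and at 45.3, 46.1 and 44.1 in the overexpression line. Every overexpression library lay below every wild-type library, by a wide gap relative to the spread within either group. Mean FPKM fell by 27.6%, with a log2 fold change of -0.45 at an adjusted p of 0.0022 (SE 0.07), and the change stayed between -0.50 and -0.35 under the alternatives. OsCPK28 read 43.8, 43.2 and 48.0 FPKM in the wild type against 33.4, 34.0 and 32.5 in the line, again with no overlap. Its log2 fold change, -0.42 (SE 0.07, adjusted p = 0.0025), ranged from -0.45 to -0.32 over the alternatives.

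OsCPK28 lies on the duplicated end of chromosome 12, and its close relative on the matching end of chromosome 11 is OsCPK24 (LOC_Os11g07040), a gene with a role in cold tolerance. OsCPK24 read 11.5, 11.1 and 12.9 FPKM in the wild type and 12.9, 11.6 and 11.7 in the line, with full overlap. Its 95% interval of the log2 fold change ran from -0.15 to 0.20. Reads that fit both copies could have been assigned to either, and the rule for them was not given in the sources used, so the split is uncertain. The ratio of OsCPK28 to OsCPK24 within a library, which no library scaling can alter, had a mean of 3.81 ± 0.0790 in wild-type and 2.77 ± 0.175 in overexpression libraries (SD, n = 3). Its groups did not overlap, with an exact two-sided permutation p of 0.1, the smallest that 3 libraries against 3 allow, and 0.125 after Benjamini-Hochberg adjustment over the 5 ratios computed. The ratio of OsCPK13 to OsCPK24 had a mean of 5.29 ± 0.483 in wild-type and 3.76 ± 0.233 in overexpression libraries, also without overlap (exact permutation p = 0.1, adjusted 0.125). Both ratios to OsCPK24 restate the FPKM values given above and are not separate support for the lower calls.

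Next in level came OsCPK19 (LOC_Os07g33110), at 26.8, 17.2 and 19.6 FPKM in the wild type and 14.7, 14.9 and 14.6 in the line. Wild-type replicate 1 was far above the other wild-type libraries, while the overexpression libraries were almost equal. Over all libraries the log2 fold change was -0.47 (SE 0.14, adjusted p = 0.032), and it was -0.30 (adjusted p = 0.012) without wild-type replicate 1. Without wild-type replicate 3 the adjusted p was 0.065, and without overexpression replicate 1, 2 or 3 it was 0.082, 0.082 and 0.093. It was 0.07 with libraries rescaled to the reads in the table. OsCPK8 (LOC_Os03g59390) had 20.5, 17.1 and 18.2 FPKM in the wild type and 15.4, 15.9 and 14.9 in the line, a narrow gap between the groups. The difference of -0.25 in log2 (SE 0.08, adjusted p = 0.037) kept its call under 6 of 17 alternatives, and leaving out wild-type replicate 3 or any 1 overexpression replicate gave adjusted p-values of 0.086, 0.1, 0.082 and 0.12.

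OsCPK15 (LOC_Os05g50810) read 16.8, 15.9 and 15.9 FPKM in the wild type and 11.8, 13.1 and 13.8 in the line, and the groups were well apart. It fell by 0.31 on the log2 scale (SE 0.07, adjusted p = 0.014) and lost its call without overexpression replicate 1 (adjusted p = 0.059) and with libraries rescaled to the reads in the table (adjusted p = 0.069). OsCPK7 (LOC_Os03g03660) was at 14.0, 13.0 and 14.2 FPKM in the wild type and at 11.5, 11.2 and 11.2 in the line, with little spread inside either group. Its log2 fold change was -0.26 (SE 0.06, adjusted p = 0.016). Without wild-type replicate 3 the adjusted p was 0.064, and without overexpression replicate 1, 2 or 3 it was 0.051, 0.063 and 0.061. It was 0.077 with libraries rescaled to the reads in the table.

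The other 3 lower CPK genes were of middle to low level. OsCPK20 (LOC_Os07g38120) had 11.9, 10.5 and 12.4 FPKM in the wild type and 8.56, 9.10 and 9.45 in the line, and fell by 0.32 on the log2 scale (SE 0.08, adjusted p = 0.016). The groups did not overlap, but the adjusted p was 0.064 without wild-type replicate 3 and 0.065 and 0.052 without overexpression replicates 1 and 2. It was 0.057 with libraries rescaled to the reads in the table. OsCPK12 (LOC_Os04g47300), known to raise salt tolerance and to lower blast resistance when overexpressed in rice, had 4.62, 3.83 and 3.94 FPKM against 3.61, 2.82 and 2.82. Overexpression replicate 1 came close to the lowest wild-type library. The log2 fold change was -0.33 (SE 0.10, adjusted p = 0.037), and the adjusted p was 0.078 and 0.076 without wild-type replicates 1 and 3 and 0.12 and 0.13 without overexpression replicates 2 and 3. With libraries rescaled to the reads in the table the adjusted p was 0.093.

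OsCPK5 (LOC_Os02g46090) was the lowest of the called CPK genes, at 3.14, 2.80 and 2.68 FPKM in the wild type and 1.85, 2.16 and 2.31 in the line. The groups were apart, with counts of 142 to 402 reads behind these values. The log2 fold change was -0.32 (SE 0.09, adjusted p = 0.026), and the pseudocount of 1 understates the change of genes this low. Its adjusted p was 0.056 and 0.05, just over the threshold, without wild-type replicates 1 and 3, and 0.092 and 0.065 without overexpression replicates 1 and 2. With libraries rescaled to the reads in the table it was 0.076.

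**Figure D2:**
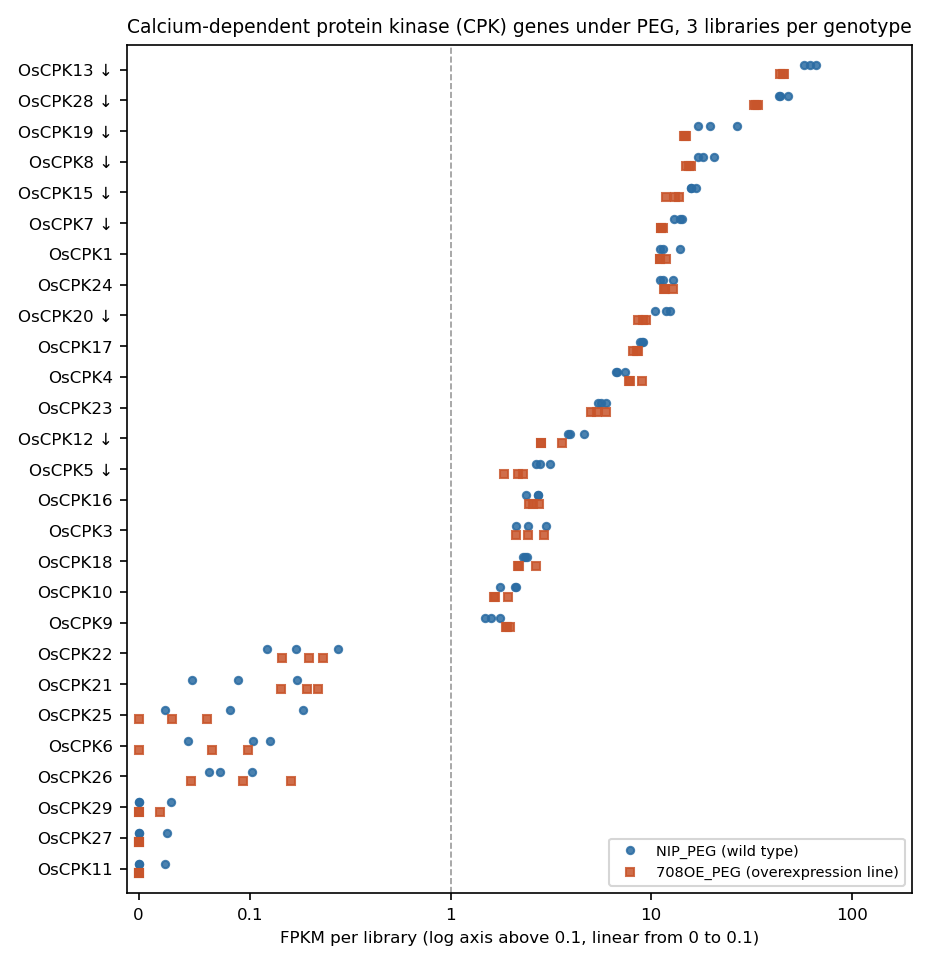
FPKM of the 27 CPK genes in each library (circles, wild type; squares, overexpression line), ordered by wild-type mean, on an axis that is linear from 0 to 0.1 and logarithmic above. Arrows mark called genes and the dashed line is the filter at an FPKM of 1; the 9 called genes, from OsCPK13 to OsCPK5, all have their squares to the left of their circles.

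The 10 tested CPK genes that did not pass had these values. OsCPK4 (LOC_Os02g03410), whose overexpression improves salt and drought tolerance in rice, had the highest fold change of the CPK genes, with 7.44, 6.65 and 6.79 FPKM in the wild type and 8.98, 7.84 and 7.79 in the line. Its groups did not overlap, its log2 fold change was 0.21 (SE 0.08, 95% interval 0.03 to 0.39, adjusted p = 0.073), and it passed under 6 alternatives, among them rescaling to the reads in the table (0.30, adjusted p = 0.019) and leaving out wild-type replicate 1 (0.25, adjusted p = 0.037). OsCPK9 (LOC_Os03g48270), another gene tied to drought tolerance, had a mean of 1.62 ± 0.135 FPKM in the wild type and 1.93 ± 0.0502 in the line (SD, n = 3), without overlap and with an interval from -0.02 to 0.34. It passed once the length trend was taken out (0.27, adjusted p = 0.036).

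OsCPK17 (LOC_Os07g06740), a kinase with a role in cold response, had means of 8.99 ± 0.175 FPKM in the wild type and 8.43 ± 0.240 in the line, with groups apart but an interval of the log2 fold change from -0.22 to 0.06. OsCPK1 (LOC_Os01g43410) was at 12.2 ± 1.49 and 11.4 ± 0.434 FPKM, and OsCPK23 (LOC_Os10g39420), known as SPK, a kinase of sucrose synthase in the developing seed, was at 5.66 ± 0.280 and 5.45 ± 0.455. OsCPK10 (LOC_Os03g57450), which acts in drought and blast resistance, ranged from 1.77 to 2.13 FPKM in the wild type and from 1.64 to 1.93 in the line. The libraries of both genotypes overlapped for all 3 of these genes.

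OsCPK3 (LOC_Os01g61590) ranged from 2.12 to 3.00 FPKM in the wild type and from 2.13 to 2.94 in the line. The means of OsCPK16 (LOC_Os05g39090) were 2.61 ± 0.188 and 2.60 ± 0.146 FPKM, and those of OsCPK18 (LOC_Os07g22710), a kinase of the immune response, were 2.35 ± 0.0536 and 2.34 ± 0.278. In this order, the 95% intervals of the log2 fold changes ran from -0.28 to 0.27, from -0.18 to 0.18 and from -0.20 to 0.19. Changes within these intervals, in either direction, therefore remain possible for these low genes.

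The remaining 8 CPK genes, OsCPK6, OsCPK11, OsCPK21, OsCPK22, OsCPK25, OsCPK26, OsCPK27 and OsCPK29, stayed under the filter, which asks 3 or more libraries for an FPKM of 1 or more. Their FPKM ranged from 0.00 to 0.274, with 1 to 79 reads per gene over all 6 libraries, and they were not tested. OsCPK21 (LOC_Os08g42750), known for salt tolerance, was among them with 5 to 22 reads per library. OsCPK11 (LOC_Os03g57510) and OsCPK27 (LOC_Os12g30150) each had 1 read, in wild-type replicate 2. OsCPK25 and OsCPK26 are near-identical copies on chromosomes 11 and 12, so that their few reads may be split between them.

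In the CIPK family the gene with the smallest adjusted p was OsCIPK1 (LOC_Os01g18800), and it was higher in the overexpression line. It had 34.0, 37.1 and 35.4 FPKM in the wild type and 50.9, 48.7 and 48.7 in the line. Each overexpression library was far above each wild-type library. Its mean FPKM was higher by 39.3%, the log2 fold change was 0.47 (SE 0.06, adjusted p = 0.0012), and this lay between 0.43 and 0.57 under all alternatives. Its share of the CIPK sum went from 7.27% ± 0.274 to 10.8% ± 0.256, from rank 5 to rank 3.

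OsCIPK10 (LOC_Os03g22050) was the other CIPK gene that was higher, with 8.57, 7.32 and 7.57 FPKM in the wild type and 9.37, 9.44 and 10.7 in the line. The groups did not overlap, though wild-type replicate 1 came near the overexpression libraries. Its log2 fold change was 0.30 (SE 0.08, adjusted p = 0.026). The call was lost without wild-type replicate 2 or 3 (adjusted p = 0.054 and 0.087) and without overexpression replicate 1, 2 or 3 (0.054, 0.058 and 0.1), and it held under each scaling.

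OsCIPK9 had the largest fall among the tested members, at 76.1, 59.1 and 62.4 FPKM in the wild type and 44.4, 43.1 and 41.0 in the line. Wild-type replicate 1 stood above the other wild-type libraries, and all wild-type libraries stood above all overexpression libraries. OsCIPK9 fell by 0.60 on the log2 scale (SE 0.10, adjusted p = 0.0029), and the log2 fold change was -0.49 (adjusted p = 0.00057) without wild-type replicate 1. Its share of the CIPK sum was 13.5% in the mean of the wild type and 9.36% in that of the line, and its rank went from 3 to 4. The order of OsCIPK1 and OsCIPK9 was thus reversed. The ratio of OsCIPK1 to OsCIPK9 within a library had a mean of 0.547 ± 0.0917 in wild-type and 1.15 ± 0.0301 in overexpression libraries, without overlap (exact two-sided permutation p = 0.1, adjusted 0.125). That pair was chosen after its values were seen.

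OsCIPK24 (LOC_Os06g40370) is the rice SOS2, the kinase that with the calcium sensor OsCBL4 activates the sodium exporter OsSOS1. It had 8.04, 7.45 and 7.95 FPKM in the wild type and 6.10, 6.01 and 5.55 in the line. The groups were well separated, the log2 fold change was -0.36 (SE 0.07, adjusted p = 0.0063), and it ranged from -0.41 to -0.24 over the alternatives. OsCIPK23 (LOC_Os07g05620), which activates the potassium channel OsAKT1, overlapped fully between genotypes, at 15.6 ± 0.847 and 15.4 ± 0.913 FPKM, with an interval of the log2 fold change from -0.18 to 0.15. The ratio of OsCIPK24 to OsCIPK23 had a mean of 0.502 ± 0.00768 in wild-type and 0.383 ± 0.0194 in overexpression libraries, without overlap (exact permutation p = 0.1, adjusted 0.125). It too restates the FPKM values of these genes and is not separate support for the lower call.

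The other 3 CIPK genes that were lower had smaller or less certain differences. OsCIPK8 (LOC_Os01g35184), whose Arabidopsis counterpart acts in the nitrate response, had 3.30, 2.28 and 2.62 FPKM in the wild type and 1.76, 1.96 and 1.96 in the line, apart but widely spread in the wild type. Its log2 fold change was -0.36 (SE 0.11, adjusted p = 0.035), and the adjusted p was 0.062 and 0.079 without wild-type replicates 1 and 3 and 0.11, 0.077 and 0.082 without overexpression replicates 1, 2 and 3. With libraries rescaled to the reads in the table the adjusted p was 0.075. OsCIPK19 (LOC_Os05g43840) had 33.0, 37.6 and 36.9 FPKM against 29.9, 30.2 and 28.1. These groups too were apart, and the log2 fold change was -0.28 (SE 0.07, adjusted p = 0.02). The adjusted p was 0.076 without wild-type replicate 3 and 0.059, 0.055 and 0.081 without overexpression replicates 1, 2 and 3. With libraries rescaled to the reads in the table it was 0.1.

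OsCIPK6 (LOC_Os08g34240) had 20.2, 20.2 and 19.8 FPKM in the wild type, almost equal values, and 18.2, 16.5 and 17.6 in the line. This difference, -0.19 in log2 (SE 0.06, adjusted p = 0.044), was the smallest among the called members. It kept its call under 6 of 17 alternatives, and the adjusted p was 0.066 and 0.1 without wild-type replicates 2 and 3 and 0.076, 0.17 and 0.11 without overexpression replicates 1, 2 and 3.

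**Figure D3:**
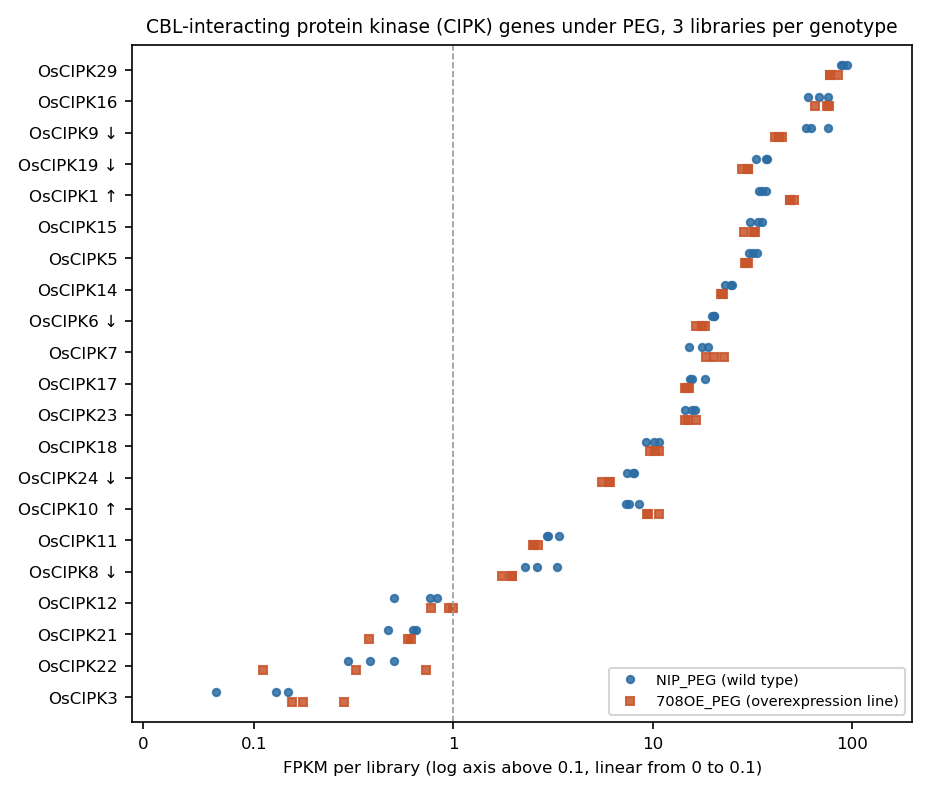
FPKM of the 21 CIPK genes in each library, drawn as for the CPK genes (circles, wild type; squares, overexpression line; linear from 0 to 0.1, logarithmic above; dashed line, filter at 1). OsCIPK1 and OsCIPK10 have their squares to the right of their circles, and OsCIPK9, OsCIPK19, OsCIPK6, OsCIPK24 and OsCIPK8 have them to the left.

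Of the 10 tested CIPK genes that did not pass, the most abundant was OsCIPK29, at 87.7, 90.2 and 94.6 FPKM in the wild type and 77.9, 84.6 and 77.7 in the line. Its groups did not overlap, and its log2 fold change was -0.18 (SE 0.07, 95% interval -0.33 to -0.03, adjusted p = 0.065). It passed without wild-type replicate 1 (-0.21, adjusted p = 0.028) and once the length trend was taken out (-0.22, adjusted p = 0.035). OsCIPK16 spread widely in both groups, with means of 68.0 ± 7.51 and 72.1 ± 6.15 FPKM (SD, n = 3) and an interval from -0.14 to 0.31.

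OsCIPK7 (LOC_Os03g43440), known from cold tolerance in rice, had means of 17.3 ± 1.93 FPKM in the wild type and 20.6 ± 2.16 in the line, with 1 overlap at the edge and a log2 fold change of 0.24 (adjusted p = 0.1). It passed when libraries were rescaled to the reads in the table (0.34, adjusted p = 0.043). OsCIPK11 (LOC_Os01g60910) had 3.10 ± 0.251 and 2.57 ± 0.0733 FPKM without overlap, with a log2 fold change of -0.20 (adjusted p = 0.078) that passed after quantile normalization (-0.23, adjusted p = 0.046).

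OsCIPK14 (LOC_Os12g02200) and OsCIPK15 (LOC_Os11g02240) are near-identical copies that act in defence responses of cultured rice cells, and OsCIPK15 also links low oxygen to sugar signalling. Their means were 24.2 ± 0.949 and 22.2 ± 0.178 FPKM for OsCIPK14 and 33.3 ± 2.29 and 31.2 ± 2.22 for OsCIPK15, in the wild type and the line. The ratio of OsCIPK14 to OsCIPK15 was 0.728 ± 0.0267 and 0.715 ± 0.0488, overlapping between genotypes (exact permutation p = 0.8), and reads of such copies may be split between them. OsCIPK5 (LOC_Os01g10890) had 31.8 ± 1.43 and 29.4 ± 0.438 FPKM and OsCIPK17 (LOC_Os05g04550) had 16.5 ± 1.59 and 14.9 ± 0.289, in each case without overlap but with intervals that included 0. OsCIPK18 (LOC_Os05g26820) overlapped, at 10.0 ± 0.757 and 10.2 ± 0.485 FPKM.

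The 4 CIPK genes under the filter were OsCIPK3, OsCIPK12, OsCIPK21 and OsCIPK22, with FPKM from 0.0658 to 0.993 and 60 to 433 reads over all libraries. OsCIPK12 (LOC_Os01g55450), which raises drought tolerance when overexpressed in rice, was the nearest to the filter, at 0.502, 0.827 and 0.761 FPKM in the wild type and 0.952, 0.771 and 0.993 in the line. OsCIPK3 (LOC_Os07g48760), linked to cold tolerance, had 7 to 22 reads per library. The length of OsCIPK22 (LOC_Os05g26940) in the table, 1355 bases, was far from the 4320 bases of the gene that carries this name in RefSeq, and that RefSeq gene is the one matched to OsCIPK18, of which it also carries the name. OsCIPK22 thus had no RefSeq gene of its own to compare with, and its name is uncertain.

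The genes around these kinases were read from the same fit. Of 7 tested CBL genes, the calcium sensors that switch on CIPKs, 3 were lower and none was higher. OsCBL3 had means of 18.7 ± 1.71 FPKM in the wild type and 14.3 ± 0.553 in the line (log2 fold change -0.36, adjusted p = 0.0098). OsCBL10 had 27.0 ± 1.76 and 22.8 ± 1.63 (-0.23, adjusted p = 0.049), and OsCBL2 had 3.13 ± 0.0348 and 2.59 ± 0.0714 (-0.20, adjusted p = 0.05 after rounding and just under the threshold). Of 5 calmodulin genes, which encode the free calcium sensor, only OsCaM3 passed, with 96.8 ± 13.6 and 65.5 ± 2.19 FPKM (-0.55, adjusted p = 0.0046). The other 4 went the other way, with log2 fold changes from 0.01 to 0.24, and were not called.

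Among known targets, 2 of 9 tested RBOH genes, for the NADPH oxidases that CPKs phosphorylate to raise reactive oxygen, were lower and none was higher. OsRbohA had means of 4.24 ± 0.163 and 3.15 ± 0.186 FPKM (-0.34, adjusted p = 0.0094), and OsRbohD had 2.68 ± 0.291 and 1.99 ± 0.124 (-0.29, adjusted p = 0.032). Of 6 channels and transporters regulated by these kinases, OsSOS1 alone passed, at 7.03 ± 0.286 and 5.66 ± 0.0739 FPKM (-0.27, adjusted p = 0.015). The other 5 went the other way, with log2 fold changes from 0.04 to 0.35, and were not called. The exporter OsSOS1 and its kinase OsCIPK24 were thus both lower, while the sensor OsCBL4 was not called (-0.20, 95% interval -0.47 to 0.07, adjusted p = 0.21). OsSOS1 had a length of 14451 bases, and 32.2% of all genes of 8 kb or more were called lower. Genes of the partner and target lists were not followed under the alternatives. These lists are small, and their shares of lower calls were 42.9% for CBL, 20% for calmodulin, 22.2% for RBOH and 16.7% for the transporters, beside 20.0% of all genes.

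Gene length moved with the calls over the whole table. The share of tested genes called lower was 12.4% for genes under 1 kb and 32.2% for genes of 8 kb or more, while the share called higher went from 22.9% to 5.05%. The kinase genes were long, with a median of 4772 bases for the tested CPK genes, 3712 for the tested CIPK genes and 3256 for all genes tested. By length class, the members called lower were 1 of 3 from 1 to 2 kb (13.6% of all genes), 3 of 5 from 2 to 3 kb (14.8%), 1 of 4 from 3 to 4 kb (20.0%) and 4 of 13 from 4 to 5 kb (24.9%). Among longer genes they were 4 of 7 from 5 to 6 kb (26.2%), 0 of 2 from 6 to 8 kb (29.7%) and 1 of 2 at 8 kb or more (32.2%). With the trend on length removed, 2 CPK genes were higher and 4 lower, and 2 CIPK genes were higher and 5 lower, beside 15.0% of all genes higher and 14.5% lower in that fit. OsCPK13, OsCPK15, OsCPK20 and OsCPK28 were the CPK genes that stayed lower.

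Within the CIPK family the 6 tested genes with a length under 2.5 kb, OsCIPK5, OsCIPK6, OsCIPK7, OsCIPK16, OsCIPK19 and OsCIPK29, had wild-type means from 17.3 to 90.8 FPKM, and 2 of them were lower and none higher. The 11 longer genes had means from 2.73 to 65.9 FPKM, with 3 lower and 2 higher. Both CIPK genes that were higher, OsCIPK1 and OsCIPK10, lay between 4 and 5 kb, where 8.27% of all genes were called higher.

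**Figure D4:**
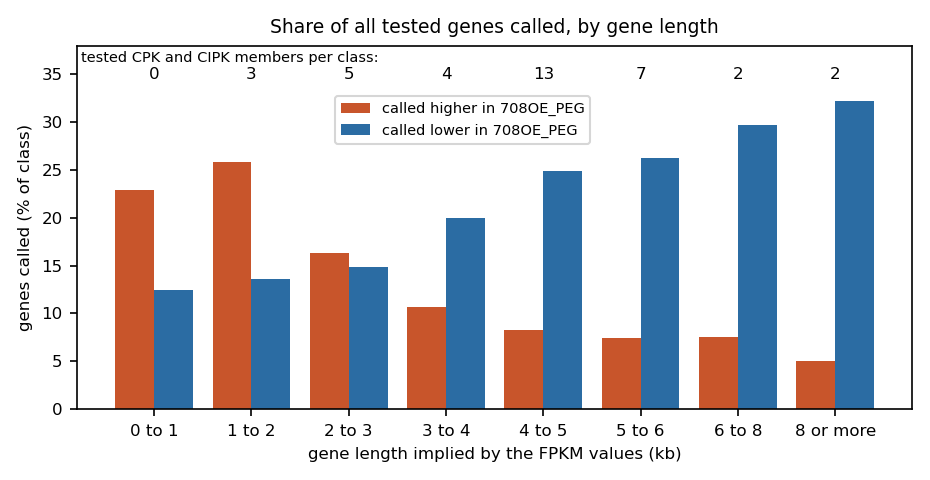
Percent of all tested genes called higher (orange) or lower (blue) in the overexpression line, by gene length in kb as implied by the FPKM values; the numbers above the bars count the tested CPK and CIPK members in each class. Lower calls become more frequent with length, from 12.4% to 32.2%, and 13 of the 36 members lie between 4 and 5 kb.

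**Figure D5:**
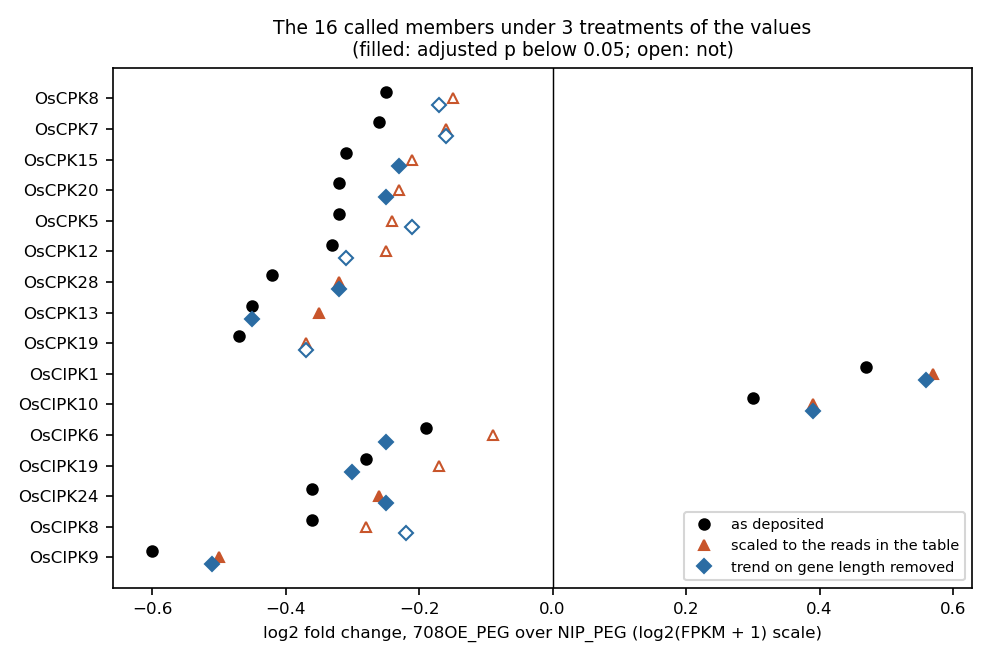
Log2 fold change of the 16 called members from the values as deposited (circles), with libraries rescaled to the reads in the table (triangles) and after removal of the length trend (diamonds); filled symbols have an adjusted p below 0.05. OsCPK13, OsCPK28, OsCIPK1, OsCIPK10, OsCIPK9 and OsCIPK24 are filled under all 3 treatments, and none of these 16 changes sign.

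Green-shoot markers, all of them photosynthesis genes, also differed between the genotypes, while most root markers were too low to test. All 9 genes of a green-shoot list were higher in the overexpression line, with summed FPKM from 7988 to 10115 in the wild type and from 15249.6 to 15812 in the line. Of 11 root genes 3 were tested and none passed, with sums from 11.0 to 11.8 FPKM in the wild type and from 11.1 to 12.7 in the line. The root sums came mostly from OsHKT2;1, at 6.58 to 8.55 FPKM over the 6 libraries, and Lsi1, at 2.39 to 3.27, while Lsi2, OsNRT2.1 and OsNAS1 were listed at 0 in every library; these 5 were named after their values were seen. Whether the rise of the green-shoot genes had a part in the lower FPKM of the kinase genes was not tested.

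In the authors' deposited table, 9 of the tested CPK genes were lower and 1 was higher, and 6 CIPK genes were lower and 2 higher, after the authors' p-values were adjusted over 31262 genes. Of all 18569 genes tested here, 25.9% were lower and 17.1% higher in the authors' deposited table by the same rule, with a median log2 fold change of -0.06. The median log2 fold change of the CPK genes in the authors' deposited table was -0.19 and that of the CIPK genes -0.13. OsCPK4 had a log2 fold change of 0.24 in the authors' deposited table (the authors' p = 0.0032), OsCIPK1 one of 0.48 and OsCIPK9 one of -0.62.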

How the data were processed

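Per the labels' protocols, TRIzol RNA was enriched for polyadenylated transcripts and made into stranded KAPA libraries. The deposited table gives FPKM values for each of 6 libraries, with the authors' log2 fold changes and p-values, per the file headers. Among the tools listed in the submitters' processing notes are HISAT2, featureCounts and DESeq2, next to FastQC, cutadapt, SAMtools and deepTools. Versions, genome build, annotation, strand setting and any adjustment of the authors' p-values were not given in the sources used here.

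Libraries were grouped by the labelled genotype. The wild-type columns carry an unexplained digit after the cultivar name and were matched to the wild type by group only. Steps in the FPKM values gave library sizes of 17.4, 24.9 and 20.0 M reads (wild type) and 13.3, 13.6 and 18.1 M (overexpression line), and gene lengths and whole reads for 99.97% of the 31263 genes above 0 (tolerance 0.02 of a read).

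The test was limma 3.58.1 (R 4.3.3) on log2(FPKM + 1) with a variance trend, over the 18569 genes whose FPKM reached 1 in 3 or more libraries. It was two-sided, p-values were adjusted over all of these genes by the Benjamini-Hochberg method with a threshold of 0.05, and the fit was tested on simulated data. Alternatives were pseudocounts, filters, scalings, a length correction, voom on the recovered reads, left-out libraries, overexpression replicates 1 and 2 as 1 sample, and a replicate block. Overexpression replicates 1 and 2 were the closest pair, at 1.42 times the counting variance, and both were kept. The other overexpression pairs were at 2.1 and 2.04, against 4.45 to 15.7 for wild-type pairs, so the spread was wider in the wild type.

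The members and lists were chosen with earlier results of these data known. Called members are given with every library, other tested members with mean and SD, members under the filter by range, and genes of the partner lists where called. Gene names of OsCPK10, OsCPK15, OsCPK16, OsCPK26 and OsCPK27 had no RefSeq symbol to compare with and rest on the list. No coordinates or sequences are printed.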

Additional observations from a re-analysis of the deposited data

How the results depend on the processing

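None of the 16 called members changed direction under the alternatives run, and 5 of them kept their call under all. Of the 20 tested members that were not called, 7 changed sign at 2 decimals under at least 1 alternative (OsCPK1, OsCPK17, OsCPK23, OsCPK24, OsCIPK15, OsCIPK18 and OsCIPK23), to values between -0.03 and 0.08 with adjusted p-values of 0.37 or more. Against 6360 genes called in all, leaving out 1 library gave 3708 to 7176, the lowest without overexpression replicate 3 and the highest without wild-type replicate 2, and counting overexpression replicates 1 and 2 as 1 sample gave 4227. Against 9 CPK genes called, there were 5 without a filter, 3 after rescaling to the table's reads, 4 with overexpression replicates 1 and 2 as 1 sample, and 3 to 9 with 1 library left out. Against 7 CIPK genes called, there were 3 with overexpression replicates 1 and 2 as 1 sample and 3 to 7 with 1 library left out; the low values of both families came without wild-type replicate 3 or without an overexpression replicate. Fits without wild-type replicate 1 or 2 also had fewer libraries, and they gave 6475 and 7176 genes called in all. The cause of the low values was not tested.

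The CPK median log2 fold change of -0.13 became -0.19 with a pseudocount of 0.1, -0.06 with a pseudocount of 5, -0.05 without a filter, -0.26 over genes with a mean FPKM of at least 5, -0.06 scaled to the reads in the table, -0.05 with the length trend removed, -0.19 with voom on whole reads, -0.18 after quantile normalization, and -0.19 to -0.10 with 1 library left out. The CIPK median of -0.12 became -0.09 without a filter, -0.08 with median-ratio scaling, -0.06 after quantile normalization, -0.02 scaled to the reads in the table, -0.08 with the length trend removed, and -0.15 to -0.10 with 1 library left out.

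Replicate numbers did not pair the samples: the deviations of same-numbered libraries correlated at -0.00504, -0.00218 and -0.0449. With a replicate block 5619 genes were called, 7 of them CPK genes and 5 CIPK genes, and the medians were -0.13 and -0.12. For the 12 members under the filter, at most 433 reads over all libraries limited any comparison.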
